A study of Mus musculus with 2 samples.

Results

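Langerhans-like cells of AT3 mammary tumors were defined here by raw transcript counts. A cell was a member when it held at least 2 unique molecular identifiers (UMIs, each standing for 1 captured transcript) of Cd207, the gene of langerin, and at least 1 UMI of Epcam, a homophilic adhesion molecule. It could hold at most 1 UMI of Xcr1 and Clec9a together, under 3 of Fscn1, at most 1 of the Cd3d, Cd3e and Cd3g genes together and under 30 of C1qa, C1qb and C1qc together. Cells entered with 500 to 7500 detected genes and at most 15% mitochondrial UMIs. The rule found 99 members among 6363 such cells, and 6742 barcodes were deposited in all.

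The study profiled immune cells sorted from AT3 tumors, which arise from a mouse mammary carcinoma line, to follow loss of 6-phosphogluconate dehydrogenase (6PGD, encoded by Pgd) in myeloid cells. Female mice 6 to 12 weeks old received 500000 AT3 cells in the mammary fat pad, and tumors of 10 mice per genotype were pooled on day 30. The control library (labelled WT) came from Pgd fl/fl mice, so the controls carried the floxed alleles as well. The other library (labelled 6PGDKO) came from Pgd fl/fl LysMCre mice, in which the Cre recombinase is driven by the Lyz2 (LysM) promoter and acts in cells that use that promoter, and it is called the LysMCre library below. The labels name a CD45+ sort and, in another sentence, a live CD11b+ sort, and B and T cells were present in both libraries. There was 1 library per genotype, so no difference between genotypes could be tested. Intervals below are 95% intervals for counting error only, they leave out differences between mice, and they are too narrow for a gene whose UMIs lie in few cells.

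Langerhans cells are the antigen-presenting cells of the epidermis. They share origin and growth factor needs with tissue macrophages, depend on CSF1R signalling and TGF-beta, and migrate to lymph nodes like dendritic cells. They hold on to neighbouring epithelial cells through E-cadherin, and langerin forms their Birbeck granules. Cd207 is also used by type 1 conventional dendritic cells (cDC1) of several mouse tissues, for which reason the rule bars Xcr1 and Clec9a.

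The control library gave 45 members of 3565 cells, a share of 1.26% (exact binomial interval 0.922 to 1.69). The LysMCre library gave 54 of 2798, a share of 1.93% (1.45 to 2.51). B cells, defined by at least 3 UMIs of Cd79a, differed widely in number (526 control and 33 LysMCre cells). After B cells and cells with 2 or more UMIs of the Cd3 genes were left out, the shares stood at 4.24% (43 of 1013 cells, 3.09 to 5.68) and 4.48% (54 of 1206, 3.38 to 5.80), and these intervals overlapped over most of their length. The 2 control members lost in that step held Cd79a UMIs. Among the cells of 4 dendritic cell groups, members made up 38.5% (45 of 117 cells, 29.6 to 47.9) in the control and 32.3% (54 of 167, 25.3 to 40.0) in the LysMCre library. The other 3 groups were cDC1 (Xcr1 and Clec9a above the limit, 27 and 40 cells), mature dendritic cells (at least 3 UMIs of Fscn1 and 1 of Ccr7, 39 and 49 cells) and Cd209a dendritic cells (at least 2 UMIs of Cd209a, 6 and 24 cells).

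Members were deeply sampled. They held a median of 11599 UMIs (3791 to 25441) in the control and 13611 (5079 to 33519) in the LysMCre library, against 5554 and 7926 over all kept cells. The sums over members, 531279 and 754090 UMIs, are the depth behind every level below, which is given as counts per 1000000 member UMIs (CPM). The libraries shared 0 cell barcodes. Each library also carried a surface oligo label, and the library's own label was the higher one in 45 of 45 and in 54 of 54 members. The same held for 3565 of 3565 control and 2798 of 2798 LysMCre kept cells, so the label says nothing particular about members.

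The promoters of the 2 genes that chose the cells, and of Ptgs1, the gene that stood furthest above the other dendritic cells, are printed because each gene was detected in most members. They are the 250 bases before a RefSeq start (GRCm38.p6), on the strand of the gene, 5′ to 3′. Cd207 lies at chr6:83671207-83677857 on the minus strand and its promoter at chr6:83677858-83678107. Epcam lies at chr17:87635979-87651127 with its promoter at chr17:87635729-87635978, and the Ptgs1 promoter lies at chr2:36230176-36230425, both on the plus strand. Ptgs1 as a whole is listed at chr2:36216742-36258593. Its window thus lies inside the gene, before an inner start, and the bases before the outermost start are not printed. Capitals mark matches to motifs of factor families used by Langerhans cells, searched on both strands.
Cd207: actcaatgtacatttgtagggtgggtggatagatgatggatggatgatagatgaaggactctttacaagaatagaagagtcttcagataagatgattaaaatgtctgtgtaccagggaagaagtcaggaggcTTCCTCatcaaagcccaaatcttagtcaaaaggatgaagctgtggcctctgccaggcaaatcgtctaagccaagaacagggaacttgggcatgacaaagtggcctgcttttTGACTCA
Epcam: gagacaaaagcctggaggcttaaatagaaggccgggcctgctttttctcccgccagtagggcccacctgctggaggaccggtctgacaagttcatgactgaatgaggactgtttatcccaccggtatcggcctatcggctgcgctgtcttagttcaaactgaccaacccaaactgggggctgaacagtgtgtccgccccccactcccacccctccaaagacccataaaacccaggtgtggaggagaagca
Ptgs1: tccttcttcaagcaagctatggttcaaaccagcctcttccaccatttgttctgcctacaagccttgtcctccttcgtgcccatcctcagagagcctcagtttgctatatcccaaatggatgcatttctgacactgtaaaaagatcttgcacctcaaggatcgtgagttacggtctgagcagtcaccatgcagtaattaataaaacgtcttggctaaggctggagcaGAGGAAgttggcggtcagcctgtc

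The Cd207 promoter held 1 match to the AP-1 motif TGANTCA, 7 bases before the start, and 1 to the ETS (PU.1) motif GAGGAA, read on the other strand 118 bases before the start. The Ptgs1 window held 1 match to GAGGAA 24 bases before its inner start, and the Epcam promoter held none. The RUNX motif TGTGGT was found in none of the 3 windows. Of 32536 distinct mouse promoters of this length, 6.73% held the AP-1 motif, 23.4% GAGGAA and 14.0% TGTGGT, so these letters are common and a match is only a description of the sequence.

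The genes of the rule describe the choice and not a finding. Cd207 gave 609 UMIs in control members (2 to 146 per cell, median 7) and 558 in LysMCre members (2 to 39, median 7). Epcam gave 811 (1 to 42, median 18) and 951 (2 to 52, median 16). Just inside the Cd207 limit, 4 control and 6 LysMCre members held exactly 2 Cd207 UMIs, with a median of 15.5 and 7 Epcam UMIs. Just outside it, 9 and 9 cells held 1 Cd207 UMI with a median of 19 and 13 Epcam UMIs, and Cldn1 was detected in all 9 of each, so cells on both sides of the limit held these genes. A further 49 control and 78 LysMCre cells met the Cd207 and Epcam limits and failed another one, most often the limit on C1q genes (26 and 34 cells) or on Cd3 genes (23 and 39). T cells (at least 3 UMIs of the Cd3 genes), which should not use these genes, gave a background: 1.72% of control and 4.05% of LysMCre T cells held a Cd207 UMI, and 4.94% and 10.1% held an Epcam UMI, at a median of 5180 and 6069 UMIs per cell. After every cell was thinned to 3000 UMIs, Cd207 was seen in 88.9% and 81.5% of members and in 1.01% and 2.13% of T cells.

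Langerhans cell genes that the rule did not use were read next. Of those named in this paragraph, all but Hapln3 were present in most members of both libraries. The whole list was less even: of its 16 genes 12 held at least 20 UMIs over both sums, and 2 had 0 UMIs in LysMCre members. The genes were listed with earlier results of these data known, so their presence describes the members and is not an independent check of the name. Cldn1, a tight junction protein, was detected in 45 of 45 control and 52 of 54 LysMCre members. The non-classical MHC class I gene H2-M5 was detected in 41 and 44 members, Ltc4s, the leukotriene C4 synthase, in 43 and 50, and Hapln3, a hyaluronan link protein, in 21 and 31. At least 3 of these 4 genes were seen together in 42 of 45 and in 46 of 54 members. Thinned to 3000 UMIs, H2-M5 was in 71.1% and 57.4% of members, against 0.820% and 1.30% of T cells thinned in the same way. Cldn1, Cdh1, H2-M2, Mfge8 and Ltc4s were all detected together in 38 control and 40 LysMCre members. Not all of these genes set members apart from their neighbours. Cldn1 was also in 81.5% and 87.5% of cDC1, Ltc4s in 37.0% and 25.0% of cDC1, and Mfge8 in 56.4% and 71.4% of mature dendritic cells. H2-M2 was in 76.9% and 65.3% of mature dendritic cells and in 74.3% and 55.1% of C1q macrophages (at least 30 UMIs of the C1q genes), and in none of the cDC1. H2-M5 was in at most 6.12% and Cdh1 in at most 41.7% of any of the other 3 dendritic cell groups, the latter in LysMCre Cd209a cells. Since the same cells were chosen by their Cd207 and Epcam counts, these shares carry no test.

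**Figure D1:**
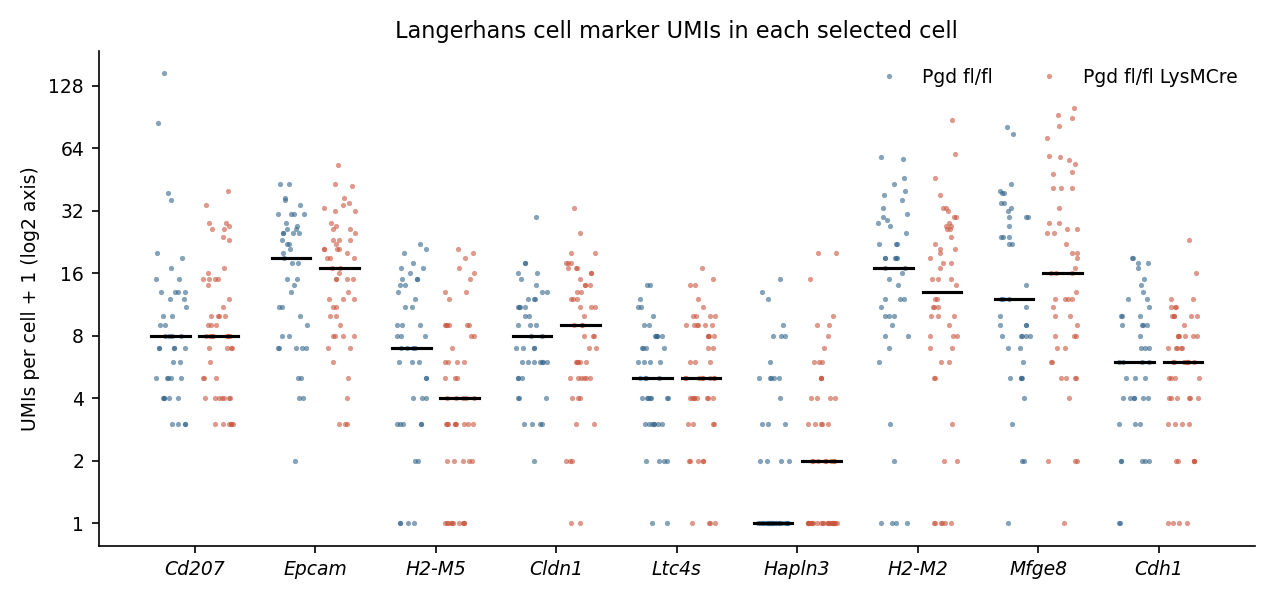
UMIs per cell, plus 1 and on a log axis, of Cd207 and Epcam (used by the rule) and of 7 further Langerhans cell genes in each of the 45 control and 54 LysMCre members; each point is a cell and black bars are medians. Cd207 has a median of 7 UMIs in both libraries, and H2-M5 has a median of 6 in the control and 3 in the LysMCre members.

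Members were next set beside the other dendritic cells, as a description with no test. The 20 genes that stood furthest above cDC1, mature and Cd209a dendritic cells in both libraries were ordered by the smallest of these differences on the log2(CPM + 10) scale. Ptgs1, Alox5, Hpgds and Ltc4s, which are enzymes that make prostaglandins and leukotrienes, were among these 20. Ptgs1, the constitutive cyclooxygenase, stood at 446 CPM in control members (391 to 507) and 341 in LysMCre members (300 to 385). It was at 0 and 1.57 CPM in cDC1, at 0 and 0 in mature and at 0 and 9.11 in Cd209a dendritic cells. C1q macrophages held 50.6 and 68.0 CPM of Ptgs1.

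Hpgds, the hematopoietic prostaglandin D synthase, was at 755 and 614 CPM in members, against 13.5 to 69.1 CPM in the other 3 dendritic cell groups and 220 and 188 CPM in C1q macrophages. Alox5, the 5-lipoxygenase, was at 104 and 119 CPM, and no other dendritic cell group exceeded 2.12 CPM. Its partner Alox5ap was not set apart in this way: members held 900 and 871 CPM, cDC1 845 and 781, Cd209a dendritic cells 838 and 884, and mature cells 53.1 and 33.7. Ltc4s was at 407 and 378 CPM, against 16.8 to 77.5 CPM in the other dendritic cells. A UMI of each of Ptgs1, Hpgds, Alox5ap and Ltc4s was found in 39 of 45 control and 41 of 54 LysMCre members, so these transcripts lay in the same cells. Alox5 joined them in 25 and 30 members.

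Between the genotypes the eicosanoid list stayed close together. Of 16 listed genes 9 held at least 20 UMIs, none differed by 2-fold and their median log2 ratio of LysMCre over control was -0.05. Ptgs1 (-0.39, -0.65 to -0.13) and Hpgds (-0.30, -0.49 to -0.10) were lower in LysMCre members, and Ptgs2, the inducible cyclooxygenase, was higher (0.61, 0.02 to 1.22).

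**Figure D2:**
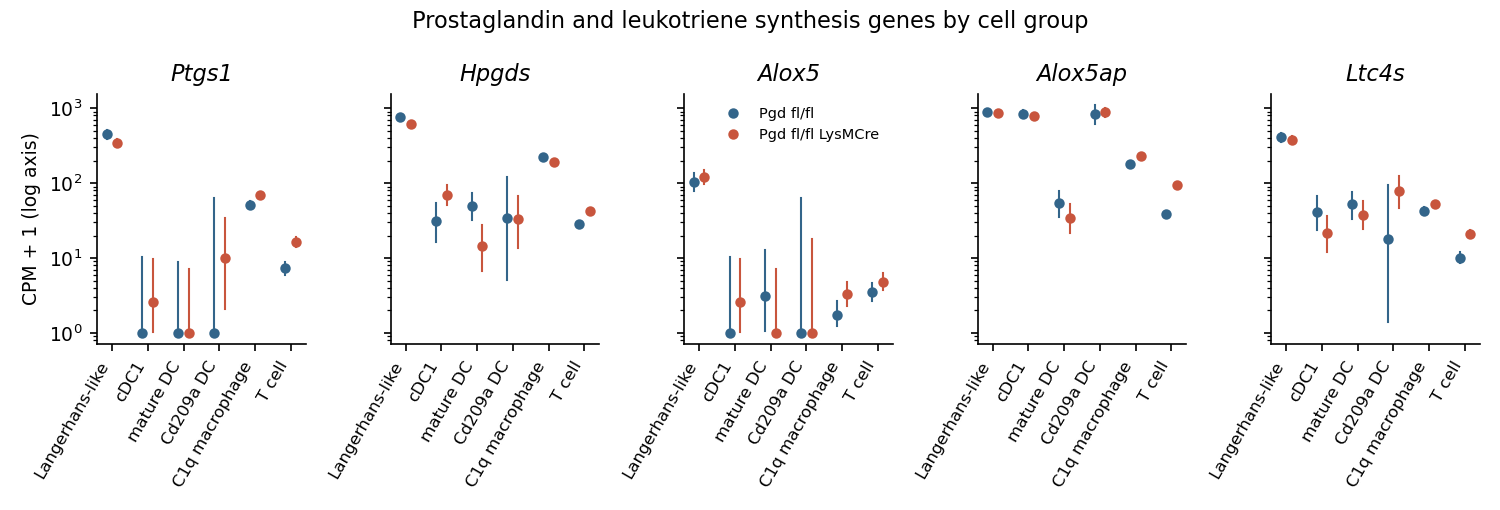
CPM plus 1, on a log axis, of Ptgs1, Hpgds, Alox5, Alox5ap and Ltc4s in 6 cell groups of the control and LysMCre libraries; bars on the points are exact Poisson intervals of the pooled counts. Ptgs1 is at 446 and 341 CPM in members and at most 9.11 CPM in the other dendritic cell groups, while Alox5ap is at 781 to 900 CPM in members, cDC1 and Cd209a dendritic cells.

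Other genes of the 20 had varied roles. H2-M5 was at 655 and 365 CPM in members and at most 50.1 CPM in the other dendritic cells. Tnfaip2, a TNF-induced gene, was at 1022 and 1087 CPM against at most 187. Nceh1, a cholesteryl ester hydrolase, was at 376 and 268 CPM against at most 27.3, Prkcb, a protein kinase C, at 476 and 373 against at most 63.8, and Hcar2, the niacin and ketone body receptor, at 160 and 74.3 against at most 16.8. The proton-coupled amino acid transporter Slc36a2 was at 65.9 and 70.3 CPM and at 0 in all 6 other dendritic cell sums. The remaining genes were Igflr1, Tmem45b, Ckap4, Dst, Camk1, Cracr2b, Gpr141, Lpar3, Tcea3 and Gna14. The Cd209a sum of the control rests on 6 cells and 59671 UMIs, where 1 UMI already gives 16.8 CPM.

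The 20 genes that stood furthest below the other dendritic cells were taken in the same way. Crip1, a LIM domain protein, was at 47.1 and 113 CPM in members against 933 to 5364 CPM in the other dendritic cells. Srgn, the proteoglycan core of secretory granules, was at 200 and 192 CPM against 841 to 1823, and Tagln2, an actin-binding protein, at 28.2 and 96.8 against 151 to 1238. Itga4, the alpha 4 integrin, was at 16.9 and 14.6 CPM against 63.8 to 463. Cyba, a subunit of the NADPH oxidase, was at 168 and 255 CPM against 858 to 1228, and Pld4 was at 1.88 and 1.33 against 18.5 to 219. The other 14 were Tspan13, Ece1, Klrk1, Lsp1, Kdm4a, Coro2a, St8sia4, Icosl, Arpc2, Sdc3, Jaml, Zyx, Gpx1 and Cnn2.

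Among receptors of the dendritic cell and macrophage lineages, Csf1r, the receptor of CSF1 and IL-34, gave 152 and 202 UMIs and was detected in 39 and 49 members. Flt3, the receptor that sustains conventional dendritic cells, gave 6 and 22 UMIs, and Zbtb46, a transcription factor of conventional dendritic cells, gave 6 and 5. Cd209a gave 0 and 2. The decoy receptor Il1r2 gave 288 and 435 UMIs. Members thus held Csf1r broadly and few transcripts of Flt3, Zbtb46 and Cd209a. The MHC class II genes were among those with the most UMIs in members: the invariant chain Cd74 stood at 23425 and 21724 CPM and H2-Ab1 at 14497 and 13733.

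Genotypes were next compared within members. A gene was counted when it held at least 20 UMIs over both sums, and 5925 genes outside the rule did. The median log2 ratio of LysMCre over control was -0.02, with 48.4% of genes higher and 51.6% lower. A level 2-fold higher in LysMCre members was found for 227 genes (3.83%) and 2-fold lower for 208 (3.51%), 7.34% in either direction. In the absence of a second library these counts have no test, and 150 and 132 of them had a counting interval that left out 0. Over all 5925 genes, whatever the size of the ratio, 6.38% had an interval above 0 and 6.38% an interval below 0. Single cells weighed on some: of the 227 higher genes 23 held 50% or more of the UMIs of their higher library in 1 member, as did 25 of the 208 lower ones.

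The targeted gene gave few UMIs in members of either library. Pgd lies at chr4:149149991-149166705 and encodes the third enzyme of the oxidative pentose phosphate pathway. It gave 19 UMIs in 16 of 45 control members and 25 UMIs in 18 of 54 LysMCre members, levels of 35.8 CPM (21.5 to 55.8) and 33.2 CPM (21.5 to 48.9), and a log2 ratio of -0.11 (-1.03 to 0.83). T cells, a lineage in which the Lyz2 promoter is not active, held 27.8 and 31.4 CPM, a log2 ratio of 0.17 (-0.06 to 0.40). C1q macrophages held 106 and 27.0 CPM (730 and 178 UMIs), a log2 ratio of -1.98 (-2.22 to -1.74). The interval in members holds both a 2-fold lower and a 1.5-fold higher level, so a difference was not detectable at this depth.

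Lyz2 itself, whose promoter drives the Cre, gave 15 UMIs in 6 control members, 9 of them in 1 cell, and 8 UMIs in 8 LysMCre members. That is 28.2 and 10.6 CPM, against 3298 and 12.1 CPM in C1q macrophages. T cells of the control held 102 CPM of Lyz2 and those of the LysMCre library 6.19, so the level in control members was below that of T cells in the same library. Since the Cre was inserted at Lyz2 in these mice, Lyz2 transcripts of LysMCre cells are not a measure of promoter use, and whether the Cre acted in members cannot be told from them.

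**Figure D3:**
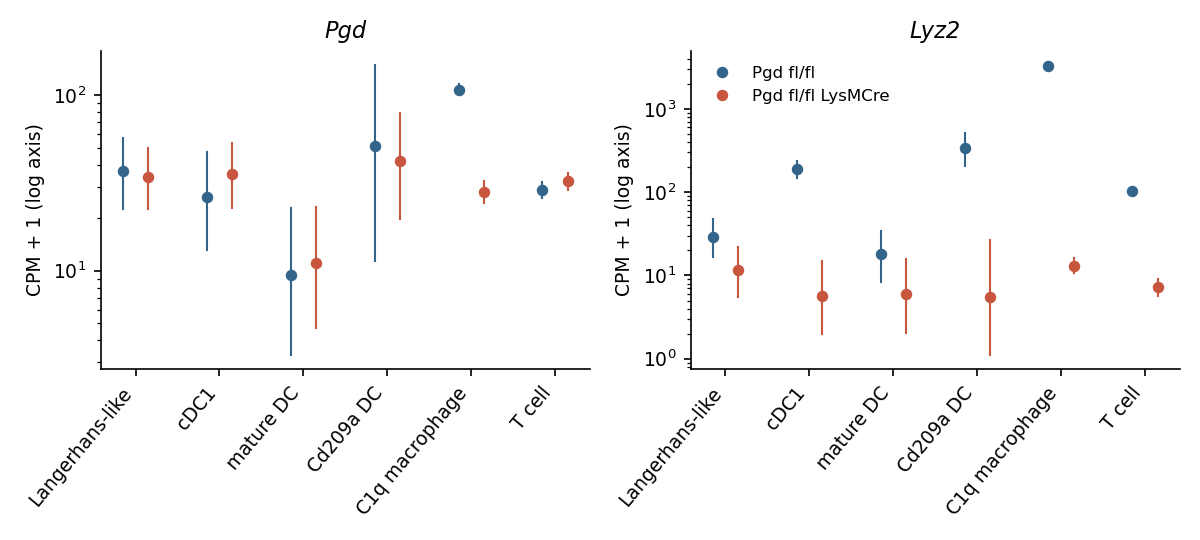
Pgd and Lyz2 in 6 cell groups of both libraries, in CPM plus 1 on a log axis, with exact Poisson intervals. In C1q macrophages Pgd is at 106 CPM in the control and 27.0 in the LysMCre library, and in Langerhans-like members it is at 35.8 and 33.2 with overlapping intervals.

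Of 11 listed pentose phosphate genes, 6 held enough UMIs. None differed by 2-fold and no interval left out 0. Tkt, the transketolase, had a log2 ratio of -0.09 (114 and 152 UMIs), Taldo1, the transaldolase, of -0.05 (140 and 192) and Pgls, the lactonase upstream of 6PGD, of 0.02 (102 and 147). G6pdx, which encodes the first enzyme of the pathway, gave 4 and 4 UMIs and was too low to compare.

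Of 16 glycolytic genes with enough UMIs, 15 were higher in LysMCre members (48.4% over all genes), and 7 intervals lay above 0 (6.38% over all genes). Their median log2 ratio was 0.30, and 1 gene passed 2-fold. Gapdh gave 675 and 1296 UMIs and a log2 ratio of 0.44 (0.30 to 0.57), Tpi1, the triose phosphate isomerase, 148 and 338 UMIs and 0.69 (0.40 to 0.97). Pfkfb3, which makes an activator of phosphofructokinase, gave 14 and 50 UMIs and 1.33 (0.45 to 2.30), and the glucose transporter Slc2a1 was the 1 gene that was lower (-0.26, -0.97 to 0.45). The same list had medians of 0.31 in cDC1, 0.45 in mature and 0.41 in Cd209a dendritic cells, 0.27 in C1q macrophages and 0.41 in T cells, beside medians over all genes of -0.02 to 0.12 in these groups. The list median was thus above 0 in all 6 groups, T cells included.

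The glutathione and NRF2 list had a median of 0.25 over 13 genes, of which 10 were higher (48.4% over all genes). Txn1, thioredoxin, was higher in LysMCre members (188 and 409 UMIs, 0.62, 0.36 to 0.87) and so was the peroxiredoxin Prdx1 (0.40, 0.10 to 0.70). Hmox1, the heme oxygenase, was lower (163 and 123 UMIs, -0.91, -1.26 to -0.56).

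Langerhans cell identity genes differed in both directions, with a median of -0.03 over 12 genes. H2-M5 was lower in LysMCre members (348 and 275 UMIs, -0.84, -1.08 to -0.61), as were Cdh1, E-cadherin (302 and 296, -0.53, -0.77 to -0.30) and H2-M2 (840 and 878, -0.44, -0.58 to -0.30). Cldn1, Ltc4s, Hapln3, Gsn and Plek2 had ratios from -0.17 to 0.10, with intervals that held 0. Ly75, the endocytic receptor DEC-205, was higher (32 and 76 UMIs, 0.74, 0.13 to 1.39), and so was Bcl2a1d, a survival gene whose close copies could share its reads (21 and 64, 1.10, 0.37 to 1.89). Mfge8, which bridges apoptotic cells to phagocytes, had a ratio of 0.19 (0.07 to 0.32) that turned to -0.14 when every cell was weighted equally.

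Of 12 transcription factors of the lineage 8 were lower, beside 51.6% of all genes, and their median was -0.04. Runx3, which Langerhans cells need to develop, had a ratio of -0.46 (232 and 239 UMIs, -0.73 to -0.20), and Id2, also needed, -0.90 (262 and 199, -1.18 to -0.63). The cell with the most Id2 UMIs held 26% of them in the control and 21% in the LysMCre library. Spi1, which encodes PU.1, and Irf8 stood at -0.04 and -0.02. Irf4 was higher (12 and 43 UMIs, 1.34, 0.39 to 2.39). Klf4 had a ratio of 1.48 over all members and of 0.78 without the top member of each library, and 50.4% of its LysMCre UMIs came from 1 cell. The aryl hydrocarbon receptor Ahr was lower (110 and 107 UMIs, -0.55, -0.94 to -0.15).

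Antigen presentation differed little. Of 14 MHC class II pathway genes 11 were lower (51.6% over all genes), none by 2-fold, with a median of -0.09. The most abundant stood at -0.03 (H2-Aa), -0.08 (H2-Ab1), 0.08 (H2-Eb1) and -0.11 (Cd74). Larger differences were seen for Ciita, the transactivator of the class II genes (134 and 123 UMIs, -0.63, -0.99 to -0.26), and H2-Oa, an inhibitor of peptide loading (85 and 79, -0.61, -1.07 to -0.15). The class II list had medians of -0.22 in cDC1, 0.52 in mature and -0.19 in Cd209a dendritic cells, -0.10 in C1q macrophages and 0.87 in T cells. The MHC class I list had a median of -0.06 over 19 genes, the adhesion list of -0.01 over 13, the TGF-beta list of 0.04 over 11 and the lysosomal list of -0.11 over 12, and none of their genes passed 2-fold.

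Receptors for growth factors and cytokines stood in both directions (7 of 17 higher beside 48.4% over all genes, median -0.07). Il7r was higher in LysMCre members (127 and 290 UMIs, 0.69, 0.38 to 1.00) and Il10ra was lower (72 and 47, -1.12, -1.68 to -0.57). Csf1r stood at -0.09 with an interval that held 0, and the GM-CSF receptor subunits Csf2ra and Csf2rb stood at -0.40 (-0.72 to -0.09) and 0.33 (0.03 to 0.64). Among lectins and pattern recognition receptors, 7 of 10 were lower (51.6% over all genes) with a median of -0.33. Clec4n, which encodes Dectin-2, was higher (20 and 74 UMIs in 12 and 35 members, 1.38, 0.65 to 2.17). The Fc and scavenger receptor list held 4 measured genes with a median of -0.07, among them Cd68 at -0.99 (-1.50 to -0.48).

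**Figure D4:**
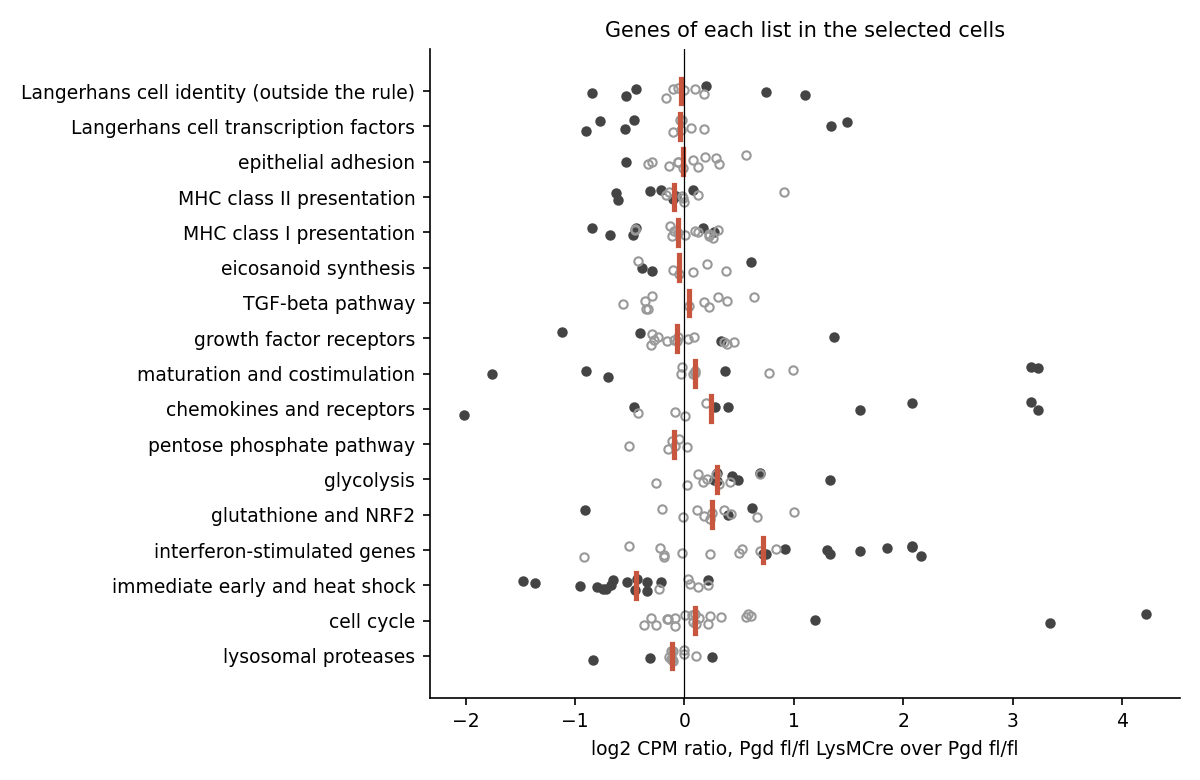
Log2 ratio of LysMCre over control members for every gene with at least 20 UMIs in 17 of the gene lists; filled points have a counting interval that leaves out 0, open points do not, and the bar is the list median. The immediate early and heat shock list has a median of -0.44, the glycolysis list of 0.30 and the interferon list of 0.71, and most other lists lie near 0.

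Members were not uniform, and several lists rested on a subset of them. The chemokine list had a median of 0.24, with 4 of 12 genes 2-fold higher and 1 lower (3.83% and 3.51% over all genes). Cxcl16 was detected in every member at a ratio near 0 (412 and 586 UMIs, 0.00, -0.18 to 0.19). Ccr7, the receptor for lymph node homing, gave 3 and 40 UMIs, of which 1 LysMCre cell held 75%, and Ccl22 gave 4 and 51. Members with at least 5 UMIs of Ccr7, Ccl22 and Il4i1 together numbered 0 of 45 in the control (an exact interval up to 7.87%) and 5 of 54 in the LysMCre library (9.26%, 3.08 to 20.3). These 5 cells held a median of 11 Cd207, 7 Epcam and 1 Cdh1 UMIs. Of 13 maturation and costimulation genes 8 were higher (48.4% over all genes), with a median of 0.09. Cd86 was higher (163 and 299 UMIs, 0.37, 0.09 to 0.65) and Cd83 stood at 0.10 with an interval that held 0.

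A further subset was cycling. The sum of 7 mitotic genes (Mki67, Top2a, Birc5, Ccnb2, Cdk1, Ube2c and Cenpf) reached 5 UMIs in 5 of 45 control (11.1%, 3.71 to 24.1) and in 10 of 54 LysMCre members (18.5%, 9.25 to 31.4), and the intervals overlapped. Over the whole cell cycle list, 15 of 22 genes were higher (48.4% over all genes) with a median of 0.10, which moved to 1.46 without the deepest 5% of members. Ube2c, a ubiquitin-conjugating enzyme of mitosis, gave 3 control and 79 LysMCre UMIs, the latter from 7 cells, while Mki67 and Top2a stood at 0.13 and -0.08.

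Interferon-stimulated genes had a median of 0.71, with 15 of 21 higher, 7 of them 2-fold and 10 intervals above 0, beside 48.4%, 3.83% and 6.38% over all genes. The median was 0.03 when the Cd207 and Epcam limits alone chose the cells. The list median was 0.22 in cDC1, 0.21 in mature and -1.59 in Cd209a dendritic cells, 0.20 in C1q macrophages and 0.00 in T cells. Isg15 gave 35 and 83 UMIs (0.74, 0.15 to 1.35) in 16 and 20 members. Bst2 gave 67 and 156 (0.71, 0.29 to 1.15). Of the 7 genes past 2-fold, Cxcl9 (60.7%), Cxcl10 (55.6%) and Ifit1 (55.6%) had most of their LysMCre UMIs in 1 cell. Rsad2, Ifit2, Zbp1 and Ifi44 had 21.1% to 37.0% there, over 8 to 12 LysMCre members. Without the top member of each library Rsad2 stood at 2.03 and Cxcl9 at 1.02.

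Immediate early and heat shock genes were lower as a list, 15 of 20 with a median of -0.44, and 14 intervals lay below 0, beside 51.6% and 6.38% over all genes. Egr1 gave 559 and 307 UMIs (-1.37, -1.58 to -1.17), the co-chaperone Dnajb1 738 and 542 (-0.95, -1.11 to -0.79) and Hspa1a 2096 and 1705 (-0.80, -0.90 to -0.71). Fosb was higher (0.21, 0.06 to 0.37). These genes are known to respond quickly to stimuli and to the handling of tissue. The same list stood at -0.17 in cDC1, -0.11 in mature and 0.79 in Cd209a dendritic cells, -0.12 in C1q macrophages and 0.03 in T cells.

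Hspa1a divided the members, with a median of 37 UMIs per cell in the control and 3.5 in the LysMCre library. A limit of 10 UMIs, chosen after the values were seen, was reached by 25 of 45 control (55.6%, 40.0 to 70.4) and 23 of 54 LysMCre members (42.6%, 29.2 to 56.8). The gene of the cytokine TNF followed this division: 145 of 157 control Tnf UMIs and 40 of 66 LysMCre Tnf UMIs lay in members at or above the limit. Tnf gave a log2 ratio of -1.76 (-2.19 to -1.33) over all members, -2.07 (-2.61 to -1.56) at or above the limit and 0.32 (-0.72 to 1.44) below it. Egr1 was lower on both sides, at -1.08 and -1.66.

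Some other genotype ratios also had unlike values on the sides of this limit. The glycolysis list had a median of 0.69 (12 of 13 genes higher) among members at or above the limit and 0.02 (8 of 15) below it, and the interferon list 1.37 (11 of 13) and -0.31 (5 of 12). Gapdh stood at 0.91 and -0.03, Il7r at 1.49 and 0.01, and Id2 at -1.26 (-1.59 to -0.93) and 1.17 (0.46 to 1.94). H2-M5 was lower on both sides, at -0.86 and -0.68, and Txn1 was higher on both, at 0.50 and 0.70. The differences between the sides were not tested, and the list genes with enough UMIs were not the same in number on each side. Id2 had only 21 control UMIs below the limit.

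**Figure D5:**
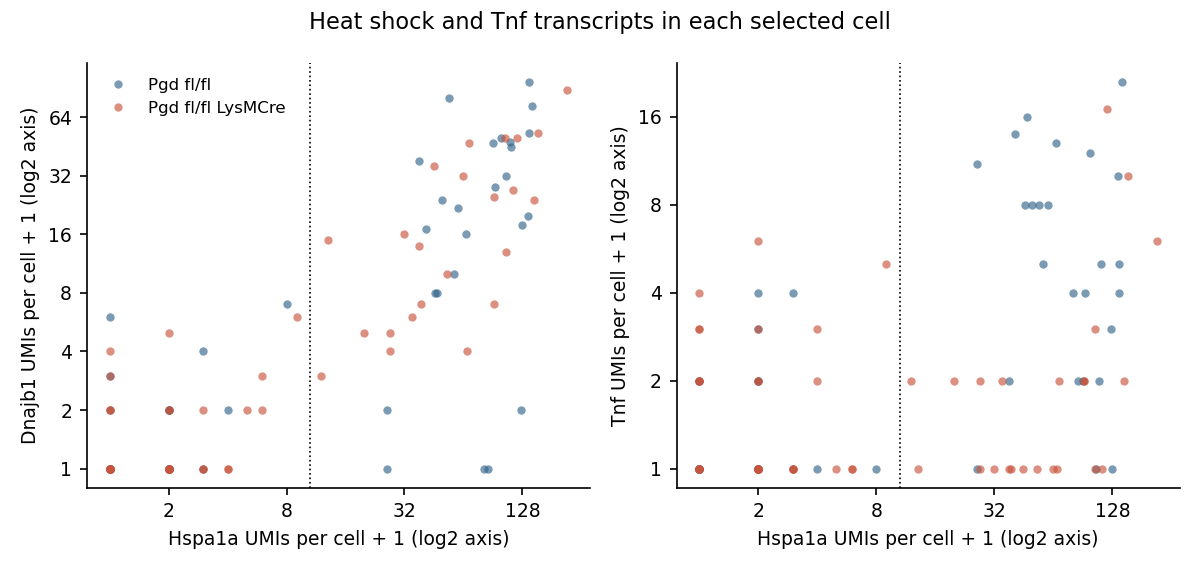
UMIs per cell, plus 1 and on log axes, of Dnajb1 and of Tnf against Hspa1a in 45 control and 54 LysMCre members; each point is a cell and the dotted line lies between 9 and 10 Hspa1a UMIs. Of 157 control Tnf UMIs 145 lie to the right of the line, and of 66 LysMCre Tnf UMIs 40 do.

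The genes with the largest genotype differences by the naming rule, which took the interval bound nearest to 0, often rested on few cells. On the higher side, Sox9 (2 and 61 UMIs), Mgp (12 and 144) and Ccr7 had 75% or more of their LysMCre UMIs in 1 member, and Ccn1 and Nfib had theirs in 1 cell only. Ccn1 and F830016B08Rik had 0 control UMIs, and against a floor of 3 UMIs over the control sum their log2 ratios were 2.23 and 2.49. The lower bounds of their counting intervals were 1.80 and 2.08. Tm4sf1 (1 and 34 UMIs), Cenpf (3 and 43) and Iigp1 (6 and 56) were also named. Of the LysMCre UMIs, 1 member held 97.1% for Tm4sf1, 96.4% for Iigp1, 91.7% for F830016B08Rik and 34.9% for Cenpf. Ly6a, which encodes Sca-1, was spread over 15 and 17 members (30 and 158 UMIs, 1.89, 1.32 to 2.51) and stood at 1.65 without its top member.

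On the lower side, Gzmc, a granzyme, gave 716 and 1 UMIs, of which 1 control cell held 99.7%, and Ifitm1 gave 63 and 7 with 97% of the control UMIs in 1 cell. Ccl2, a monocyte chemoattractant, gave 185 and 65 UMIs in 10 and 11 members (-2.01, -2.45 to -1.60). Tnf was spread over 29 and 25 members and stood at -1.96 without the top member of each library. Mmp12, a macrophage elastase, gave 104 and 23 UMIs (-2.68), but only 4 control members held any and 1 held 73.1%, and it stood at -1.99 without the top members. Hspb1, a small heat shock protein, gave 74 and 25 UMIs (-2.07), again from 4 control members with 59.5% in 1, and stood at -1.41 without them. Gm37800 gave 95 and 23 UMIs in 13 and 6 members (-2.55). Adm, Snorc, Ctsw, Il2rb and Ppif completed the named genes at 18 to 38 control UMIs. These too lay mostly in 1 control cell each, which held 97.4% for Adm, 100% for Snorc, 88.9% for Ctsw, 90.5% for Il2rb and 64.5% for Ppif.

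Genes spread over many members were fewer. Of the 227 higher genes 60 were detected in at least 20 members of the library in which they were higher, and of the 208 lower ones 30 were. Among them, and chosen after their values were seen, were Hilpda, a lipid droplet protein (79 and 253 UMIs in 23 and 37 members, 1.17), Vegfa (30 and 98 UMIs in 11 and 25 members, 1.20), Kdm2b (13 and 73 UMIs in 7 and 28 members, 1.98) and, on the lower side, Hcar2 (85 and 56 UMIs, -1.11).

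Markers of other cell types were read in members as whole lists and, for some lists, again without certain genes. Those genes were chosen after the values were seen, and not all of them were held broadly by members. T cell markers outside the rule gave 158 UMIs in 37 control members and 313 in 50 LysMCre members, mostly of Il7r, and without Il7r they gave 31 in 15 and 23 in 17. B cell markers gave 225 UMIs in 38 and 205 in 47 members, and without Ighm 53 in 10 and 19 in 4. Each of these lists thus owed most of its UMIs to 1 gene.

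Natural killer cell markers gave 39 UMIs in 11 and 33 in 24 members, and without Klrd1 23 in 9 and 15 in 15. Plasmacytoid dendritic cell markers gave 114 UMIs in 34 and 295 in 41 members. Without Bst2, Tcf4 and Irf7, which other cells also use, they gave 11 in 4 and 61 in 13, and 47 of the latter lay in 1 cell. Monocyte markers gave 67 UMIs in 21 and 79 in 29 members, and without Cd14 26 in 10 and 33 in 21. The remaining lists were low or lay in few cells. Neutrophil markers gave 62 and 63 UMIs, of which 1 cell held 52 and 57. Mast cell markers gave 8 and 9 UMIs, all of Kit, and epithelial tumor cell markers 27 in 10 and 29 in 5 members. In the 37 control and 51 LysMCre members that held fewer than 5 UMIs, summed over Gzmc, Mgp and the natural killer, neutrophil, epithelial and fibroblast markers, Tnf stood at -1.84, H2-M5 at -0.74, Gapdh at 0.39, Ly6a at 1.49 and Klf4 at 0.44, and the interferon list had a median of 0.41.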

How the data were processed

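Single-cell RNA libraries (10x Genomics) of tumor-sorted immune cells were measured in 2 samples, 1 per genotype. The authors deposited raw UMI counts per gene and barcode, made with Cell Ranger 6.1.2 on mm10 per the submitters' processing notes, and the table also held 12 surface oligos, which stayed out of all totals. No doublet caller was run here. The matrices are filtered barcode lists, with 32285 genes.

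Cells were kept and members chosen by the limits given in the report. Members and gene lists were chosen with earlier results of these data known. UMIs were summed over the members of each library and given as CPM with exact Poisson intervals. Genotype ratios are log2 of LysMCre over control CPM with exact conditional intervals, for genes with at least 20 UMIs over both sums, and against a group at 0 a floor of 3 UMIs over the sum was used. Shares have exact Clopper-Pearson intervals. All intervals are at 95% and cover counting error only. Thinning drew 3000 UMIs per cell (seed 1) and left out 215 control and 153 LysMCre T cells and 0 members. Ratios and intervals were tested on simulated Poisson counts. These held no spread between cells or mice, so that test does not cover genes whose UMIs lie in few cells. With 1 library per genotype no test was run.

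Named genes were the 12 higher and 12 lower ordered by how far the nearer bound of their interval lay from 0 (mitochondrial, ribosomal, immunoglobulin and T cell receptor genes left out), the 20 genes furthest above and the 20 furthest below cDC1, mature and Cd209a dendritic cells (pseudocount 10 CPM), the list genes, Pgd and Lyz2. Clec7a, Sting1, Mx1 and H2az1 had no row by these symbols and were not analysed here. Gene positions and promoters were taken from RefSeq (GRCm38.p6), by symbol, for 542 of 547 genes looked up. Alternatives changed the rule, the cell filter, the UMI minimum, the scaling and the cells left out. Python 3.11.15, numpy 2.4.6, scipy 1.17.1, pandas 2.3.3 and matplotlib 3.10.9 were used.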

Additional observations from a re-analysis of the deposited data

Results flagged for a closer look

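The named genes below had log2 ratios of LysMCre over control whose interval lay on one side of 0 in Langerhans-like members and on the other side in another cell group of the same libraries. The difference between the groups was not tested in any of these cases, since there was 1 library per genotype.

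Tnf stood at -1.76 in members and at 0.43 in C1q macrophages (0.31 to 0.55, 1002 control and 1302 LysMCre UMIs). Ccl2 stood at -2.01 in members and at 0.92 in C1q macrophages (0.82 to 1.02, 1243 and 2264 UMIs). Mmp12 stood at -2.68 in members and at 0.53 in C1q macrophages (0.45 to 0.61, 2183 and 3038 UMIs). Hspb1 stood at -2.07 in members, at 2.73 in cDC1 (1.41 to 4.41, 5 and 53 UMIs) and at 1.06 in C1q macrophages (0.86 to 1.26, 312 and 626 UMIs). Ube2c stood at 4.21 in members and at -0.39 in C1q macrophages (-0.72 to -0.07, 188 and 138 UMIs).

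In members, Mmp12 and Hspb1 UMIs came from 4 control cells each, with 73.1% and 59.5% in 1 cell, and Ube2c had 3 control UMIs. Tnf was spread over 29 control and 25 LysMCre members and Ccl2 over 10 and 11.

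Gzmc stood at -9.99 in members, where 1 control cell held 99.7% of its UMIs, and at 1.94 in C1q macrophages (1.59 to 2.30, 85 and 313 UMIs). Adm stood at -5.75 in members and at 2.43 in C1q macrophages (1.03 to 4.17, 5 and 26 UMIs). Ifitm1 stood at -3.68 in members and at 4.73 in cDC1 (2.83 to 7.80, 2 and 85 UMIs). Ctsw stood at -3.68 in members and at 4.18 in cDC1 (1.59 to 9.53, 1 and 29 UMIs). Il2rb stood at -2.90 in members and at 2.41 in cDC1 (0.33 to 5.57, 2 and 17 UMIs). Of the control member UMIs, 1 cell held 97.4% for Adm, 96.8% for Ifitm1, 88.9% for Ctsw and 90.5% for Il2rb. The cDC1 sums rest on 27 control and 40 LysMCre cells. They also held 37.7 and 221 CPM of natural killer cell markers and 103 and 834 CPM of mast cell markers. Whether the cDC1 ratios above came from few cells was not tested.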

How the results depend on the processing

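The share of members moved from 1.26% and 1.93% of kept cells to 2.64% in the control and 4.72% in the LysMCre library when the Cd207 and Epcam limits alone chose them (94 and 132 cells), and to 4.24% and 4.48% without T and B cells, an alternative chosen after seeing the data. Genes 2-fold higher in LysMCre members numbered 227, and 360 under these limits alone, 517 at a minimum of 10 UMIs and 59 at 50. Those 2-fold lower numbered 208, and 483 at 10 UMIs and 42 at 50. With the Cd207 and Epcam limits alone, the log2 ratios of Ifitm1 (0.41), Ctsw (0.074), Il2rb (0.94) and Id2 (0.23) turned positive and that of Cxcl9 (-0.79) negative. Without the top member of each library, Ifitm1 (0.82) and Il2rb (0.080) turned positive. Mfge8 turned to -0.14 with cells weighted equally and to -0.041 without members holding genes of other cell types, the latter chosen after seeing the data. The cause of these changes was not tested.

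Over 516 alternatives for 50 single genes, 454 values stayed inside the main counting interval and 53 fell outside it. The remaining 9 changed sign, which was counted only for genes whose main interval left out 0. A change of sign in any other gene, such as Pgd, is in the other counts. Of 221 alternatives for list medians, 5 moved, among them the cell cycle list, at 1.46 without the deepest 5% of members. The Pgd ratio ranged from -0.56 to 0.03, inside its interval. Median-ratio scaling shifted all ratios by 0.02. After thinning to 3000 UMIs, 83 of 104 shares of cells with a UMI moved, as fewer UMIs were drawn. Depth limits Pgd, Lyz2 and other genes with under 20 UMIs per library. Leaving out a replicate was impossible with 1 library per genotype. No paired analysis was possible because each genotype had 1 library and no test was run.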
